A study of Homo sapiens with 18 samples.

Results

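A set of 10 genes that mark or drive the change of an epithelial cell towards a mesenchymal state were followed through LNCaP cells, an established human prostate cancer line with luminal epithelial features. They were taken by gene name from a deposited table of RNA-sequencing values, and all 10 were found among its 26443 genes. VIM, FN1, THBS1, TGFBI and CDH2 encode structural, matrix and adhesion proteins, and SNAI1, SNAI2, ZEB1, ZEB2 and TWIST1 encode transcription factors. The study asked how loss of FOXA1, a factor that opens chromatin for the androgen receptor, alters these cells in a hypoxia mimic, with or without inhibition of HIF1A, the oxygen-regulated transcription factor. Cells were infected for 5 days with lentivirus, in 6 groups of 3 libraries. The groups were shFOXA1 with shHIF1A (the doubly infected cells), shFOXA1 with KC7F2, shFOXA1, shHIF1A, the pGIPZ control with KC7F2, and the pGIPZ control. All 6 groups, controls included, received 100 µM CoCl2, which stabilises HIF1A protein, for the last 24 h, so no group shows the cells without the hypoxia mimic. KC7F2, a small-molecule inhibitor of HIF1A, was given at 40 µM for 24 h. All groups come from 1 cell line, the shRNA vectors are known only by target, and the label of the doubly infected cells spells its second shRNA shhi1a. Whether the 3 libraries of a group came from separate cultures is not stated, and p-values then cover only the spread between these libraries, which may be technical.

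Epithelial cells are held together by E-cadherin junctions and keratin filaments. In the transition to a mesenchymal state, factors of the SNAI, ZEB and TWIST families bind E-box sequences and repress junction genes, while the intermediate filament vimentin, N-cadherin and matrix proteins such as fibronectin accumulate. TGF-beta, Notch and hypoxia signals are known inducers, FOXA1 is known for holding luminal prostate cells in an epithelial state, and LNCaP is known as a line with little vimentin or N-cadherin.

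Values are RPKM, read counts scaled to gene length and library depth, so levels of different genes can be set side by side. Library depth, recovered from the spacing of the lowest values, was 3257743 to 12086042 reads, lowest in replicate 1 of the doubly infected cells. FOXA1 mRNA averaged 34.1 ± 1.51 RPKM in shFOXA1 cells, against 97.5 ± 22.7 RPKM in control (SD, n = 3 each), and HIF1A mRNA averaged 3.56 ± 0.642 RPKM in shHIF1A cells, against 23.1 ± 7.91 RPKM in control. In doubly infected cells FOXA1 stood at 64.5 ± 5.77 RPKM, above the 34.1 RPKM of shFOXA1 cells, and HIF1A stood at 4.32 ± 0.245 RPKM, against 89.9 ± 8.998 RPKM in shFOXA1 cells. All 10 markers of LNCaP and luminal prostate cells reached 1 RPKM, but their summed level differed between groups, at 836.9 to 944.8 RPKM in doubly infected cells, 1408 to 1525 in shFOXA1 cells with KC7F2, 1398 to 1544 in shFOXA1 cells, 1058 to 1258 in shHIF1A cells, 1520.0 to 1636 in KC7F2-treated control cells and 1765 to 2209 in control. Of 5 endothelial markers VWF alone reached 1 RPKM, with means of 2.34 RPKM in shHIF1A cells, against 0.653 in control, while PECAM1 and CDH5 stayed at or below 0.0449 and 0.0744 RPKM. Of 5 leukocyte markers CD68 alone did, with means of 18.5 RPKM in shFOXA1 cells, against 6.50 in control, while PTPRC, which defines leukocytes, stayed at or below 0.0288 RPKM. In bulk samples, fewer cells of a kind and less RNA per cell cannot be told apart.

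The members differed widely in level. FN1 was the highest, at 213 to 958 RPKM and at least 17552 reads in every library, and THBS1 followed at 18.9 to 160.6 RPKM with at least 1325 reads. VIM, SNAI1, SNAI2 and TWIST1 were low but had reads in all 18 libraries: VIM rested on 19 to 392 reads in a library, SNAI2 on 6 to 92, SNAI1 on 4 to 42 and TWIST1 on 3 to 42. TGFBI had 137 reads in all, of which 107 came from shHIF1A cells. ZEB1, CDH2 and ZEB2 never reached 1 RPKM and were too low to test. The other 7 members passed the filter of 1 RPKM or more in 3 or more of the 18 libraries, which kept 12900 genes. TGFBI passed only through its level in shHIF1A cells, so its higher level there was built into the filter, and its tests against that group are given below from a fit with no filter. The words rise and fall are kept for calls of limma, fitted over all 6 groups and all tested genes on log2(RPKM + 0.5), at an adjusted p below 0.05. Each change is given as a log2 fold change with its SE on that scale, which makes changes of low genes look smaller than they are. The comparisons share groups and are not independent of each other.

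**Figure D1:**
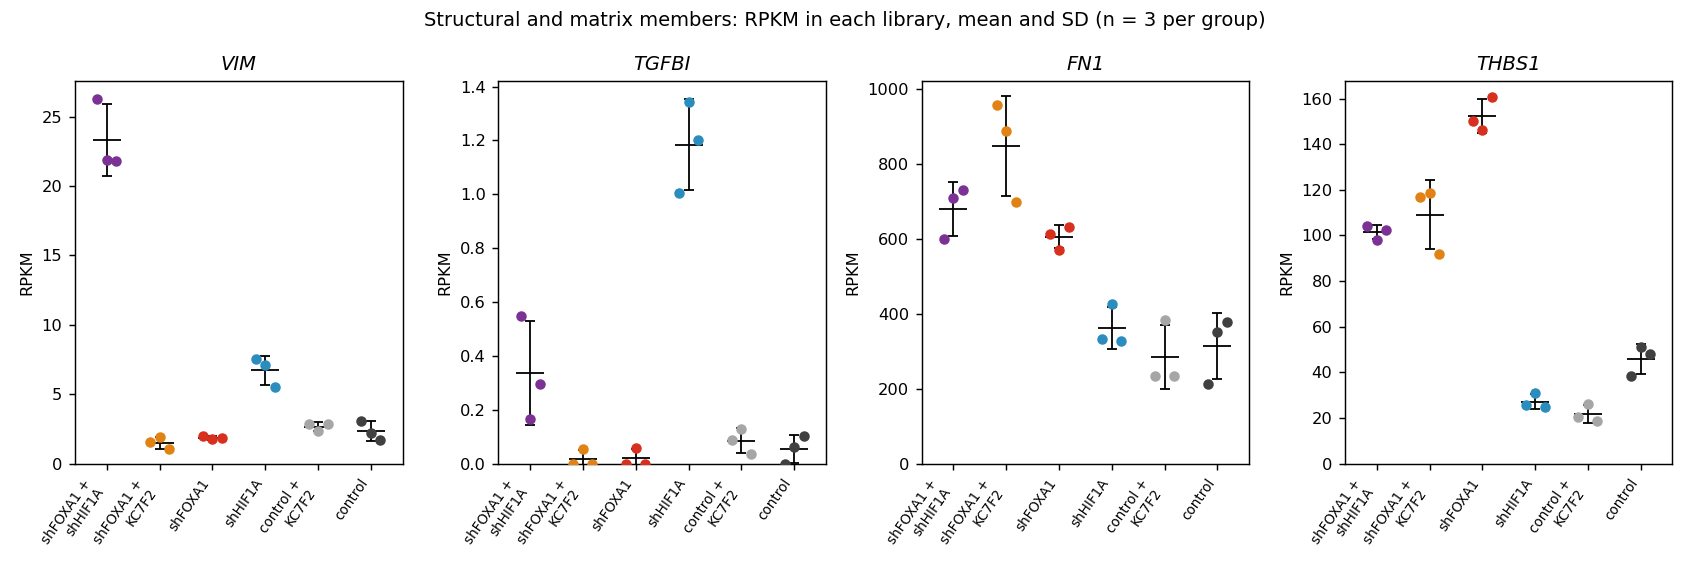
RPKM of VIM, TGFBI, FN1 and THBS1 in each of 18 libraries (points), with the mean and SD of each group of 3 (bars) on linear axes from 0. VIM was highest in doubly infected cells, TGFBI in shHIF1A cells, and FN1 and THBS1 were higher in every group with shFOXA1 than in its counterpart without it.

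VIM encodes vimentin, the intermediate filament of mesenchymal cells (chromosome 10, 17228259 to 17237593, hg38, plus strand). It was higher with HIF1A knockdown, and highest with both knockdowns together. In doubly infected cells VIM stood at 26.3, 21.9 and 21.8 RPKM in replicates 1 to 3. In shFOXA1 cells it stood at 2.01, 1.76 and 1.81 RPKM. The doubly infected libraries lay far above every other library of the study, and the next group, shHIF1A cells, held 7.54, 7.09 and 5.53 RPKM. Control libraries held 3.09, 2.22 and 1.68 RPKM, a range that took in the 2.83, 2.32 and 2.85 RPKM of KC7F2-treated control cells and the shFOXA1 values. The lowest group, shFOXA1 cells with KC7F2, held 1.53, 1.89 and 1.02 RPKM. The doubly infected cells, with the highest VIM, also had the lowest summed luminal markers (836.9 to 944.8 RPKM, against 1398 to 1544 RPKM in shFOXA1 cells), whose part in the VIM level was not tested. KLK3 was the highest of these markers, with means of 297 RPKM in doubly infected and 629 RPKM in shFOXA1 cells. Only FOLH1 (66.5 against 60.8 RPKM) and SLC45A3 (19.3 against 13.5 RPKM) were higher in doubly infected cells, so the sum does not describe every marker.

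VIM rose by 3.33 ± 0.18 in doubly infected cells against shFOXA1 cells (limma adjusted p = 1.45e-09), a ratio of pooled reads of 12.1 with a counting interval of 9.54 to 15.5 (95%, exact binomial). It rose by 1.37 ± 0.18 in shHIF1A cells against control (adjusted p = 2.06e-05). The change with FOXA1 knockdown was read in 3 backgrounds. VIM rose by 1.73 ± 0.18 in doubly infected cells against shHIF1A cells (adjusted p = 8.10e-06), changed by -0.23 ± 0.18 in shFOXA1 cells against control (adjusted p = 0.388), and fell by 0.70 ± 0.18 in shFOXA1 cells with KC7F2 against control cells with KC7F2 (adjusted p = 0.00852). The interaction, the effect of shFOXA1 in shHIF1A cells minus its effect in control cells, was 1.96 ± 0.26 (adjusted p = 0.000150). FOXA1 mRNA itself changed by -0.89 ± 0.16 in doubly infected against shHIF1A cells and by -1.47 ± 0.16 in shFOXA1 cells against control. That difference in FOXA1 was 0.58 ± 0.22 (limma adjusted p = 0.142), and its part in the VIM interaction was not tested. The fall with KC7F2 was not called when 3 libraries with relatively more signal in short genes were left out, at a difference of -0.54. These were control 1 and KC7F2-treated control 1 and 3. Only 1 KC7F2-treated control library then remained, so no p-value is given. KC7F2 itself changed VIM by 0.19 ± 0.18 in control cells (adjusted p = 0.742) and by -0.28 ± 0.18 in shFOXA1 cells (adjusted p = 0.516). Antisense VIM-AS1 reads cannot be told apart from VIM without strand information. VIM-AS1 was listed at 0.462 to 1.32 RPKM in doubly infected cells, against 0.194 to 0.247 RPKM in shFOXA1 cells.

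The sequence around the VIM start is shown because VIM rose with HIF1A knockdown both alone and on top of shFOXA1. It runs from 250 bases before the RefSeq start to 20 bases after it (GRCh38.p14, chr10:17227991-17228260, plus strand), and capitals mark the core of the hypoxia response element, ACGTG, read on either strand.
VIM: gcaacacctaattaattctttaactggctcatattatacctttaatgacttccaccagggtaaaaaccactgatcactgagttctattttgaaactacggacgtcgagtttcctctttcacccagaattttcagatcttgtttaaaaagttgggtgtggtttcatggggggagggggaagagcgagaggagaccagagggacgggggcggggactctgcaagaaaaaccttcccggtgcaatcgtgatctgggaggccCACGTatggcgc
The match lies on the strand opposite to the gene, from base 9 counted from the RefSeq start. That start lies upstream of the VIM start position given above, and the match lies upstream of that position too. Of 35116 RefSeq promoter windows of 300 bases, 21.4% held ACGTG on either strand, so a match of this kind is common. The match is a run of letters, and nothing here measured binding to it.

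TGFBI encodes a secreted matrix protein induced by TGF-beta (chromosome 5, 136028895 to 136063818). It stood at 1.01, 1.34 and 1.20 RPKM in shHIF1A cells, from 34, 43 and 30 reads. In control it stood at 0, 0.0616 and 0.104 RPKM, from 0, 2 and 3 reads. The shHIF1A libraries lay above every other library, and doubly infected cells followed with 0.547, 0.165 and 0.296 RPKM, from 5, 3 and 7 reads. Since TGFBI entered the set of tested genes only through shHIF1A cells, its call there with the filter is no support. With no filter, the difference of 1.60 between shHIF1A cells and control on the log2(RPKM + 0.5) scale had a limma adjusted p of 3.52e-06, and that of -1.03 between doubly infected and shHIF1A cells 0.000507. The second was not called with a pseudocount of 0.1 and the filter (adjusted p = 0.104). Against shFOXA1 cells, with 15 reads against 1, the rise of 0.66 ± 0.24 in doubly infected cells (adjusted p = 0.0429) was lost without any 1 of shFOXA1 1, 2 or 3 or doubly infected 1 or 3 (adjusted p 0.0602 to 0.163). The interaction on TGFBI was -0.94, with an adjusted p of 0.0182 with no filter and 0.122 with it.

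Fibroblast markers were read beside these genes. Of 10, only the collagens COL1A1 and COL3A1 reached 1 RPKM in any library, and the other 8 stayed at or below 0.307 RPKM, PDGFRA at or below 0.0694 RPKM and DCN at or below 0.189 RPKM. The summed level of all 10 was 5.35 to 6.08 RPKM in doubly infected cells, 2.31 to 3.73 in shFOXA1 cells with KC7F2, 2.34 to 3.05 in shFOXA1 cells, 8.02 to 9.33 in shHIF1A cells, 3.46 to 4.17 in KC7F2-treated control cells and 2.66 to 3.53 in control. It was highest in shHIF1A cells, as TGFBI and the endothelial VWF were, while VIM was highest in doubly infected cells.

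FN1 encodes fibronectin, a matrix glycoprotein that cells grip through integrins (chromosome 2, 215360440 to 215436172, minus strand). THBS1 encodes thrombospondin-1, a secreted matrix protein that restrains blood vessel growth and can activate latent TGF-beta (chromosome 15, 39581079 to 39599466, plus strand). Both rose wherever shFOXA1 was compared with its own background. FN1 stood at 614, 571 and 632 RPKM in shFOXA1 cells, against 213, 352 and 377 RPKM in control, with no overlap and control 1 the lowest library of all. In doubly infected cells it stood at 599, 709 and 732 RPKM, against 332, 427 and 328 RPKM in shHIF1A cells. With KC7F2 the values were 958, 888 and 699 RPKM in shFOXA1 cells, against 234, 382 and 235 RPKM in control cells. FN1 was thus already among the high genes of control LNCaP cells, and every library with shFOXA1 lay above every library without it. The rises were 0.99 ± 0.22 in shFOXA1 cells against control, 0.91 ± 0.22 in the shHIF1A background and 1.61 ± 0.22 under KC7F2 (limma adjusted p = 0.00301, 0.00896 and 4.02e-05). Neither shHIF1A nor KC7F2 moved FN1 past the threshold, with 0.24 ± 0.22 in shHIF1A cells and -0.14 ± 0.22 with KC7F2 against control (adjusted p = 0.406 and 0.835). The interactions on FN1 were -0.08 ± 0.31 with shHIF1A and 0.62 ± 0.31 with KC7F2 (adjusted p = 0.919 and 0.772).

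THBS1 stood at 150.0, 146 and 161 RPKM in shFOXA1 cells, against 38.4, 50.9 and 48.0 RPKM in control. In doubly infected cells it stood at 104, 98.2 and 102 RPKM, against 25.9, 31.0 and 24.6 RPKM in shHIF1A cells. With KC7F2 the values were 117, 118 and 91.9 RPKM in shFOXA1 cells, against 20.2, 26.0 and 18.9 RPKM in control cells. All 9 libraries with shFOXA1 lay above all 9 without it, and within each of these sets the group with neither shHIF1A nor KC7F2 was the highest, without overlap. With shFOXA1, THBS1 rose by 1.73 ± 0.14 against control, by 1.89 ± 0.14 in the shHIF1A background and by 2.31 ± 0.14 under KC7F2 (limma adjusted p = 9.94e-08, 1.61e-07 and 4.33e-09). THBS1 fell with HIF1A knockdown in both backgrounds, by 0.74 ± 0.14 in shHIF1A cells against control (adjusted p = 0.000419) and by 0.58 ± 0.14 in doubly infected cells against shFOXA1 cells (adjusted p = 0.00339). With KC7F2 it fell by 1.06 ± 0.14 in control cells (adjusted p = 0.000366), a call lost in a fit of these 6 libraries alone (adjusted p = 0.112), and changed by -0.49 ± 0.14 in shFOXA1 cells (adjusted p = 0.0600). The interactions were 0.16 ± 0.19 with shHIF1A and 0.58 ± 0.19 with KC7F2 (adjusted p = 0.686 and 0.464). FSIP1, which overlaps THBS1 on the opposite strand, was listed at 0.512 to 2.20 RPKM over all libraries, at most a small part of the THBS1 level. CD68, at 18.5 RPKM in shFOXA1 cells, against 6.50 RPKM in control, was higher with shFOXA1, as FN1 and THBS1 were. Among the groups with shFOXA1 it did not follow FN1. CD68 averaged 12.1 RPKM with KC7F2 and 10.5 RPKM in doubly infected cells, where FN1 averaged 848 and 680 RPKM, against 606 RPKM in shFOXA1 cells. The part of CD68 in the FN1 and THBS1 levels was not tested.

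The starts of FN1 and THBS1 are printed because both genes rose with shFOXA1 in all 3 backgrounds. Each runs from 250 bases before the RefSeq start to 20 bases after it (GRCh38.p14), FN1 at chr2:215436049-215436318 on the minus strand and THBS1 at chr15:39580829-39581098 on the plus strand, and capitals would mark a match.
FN1: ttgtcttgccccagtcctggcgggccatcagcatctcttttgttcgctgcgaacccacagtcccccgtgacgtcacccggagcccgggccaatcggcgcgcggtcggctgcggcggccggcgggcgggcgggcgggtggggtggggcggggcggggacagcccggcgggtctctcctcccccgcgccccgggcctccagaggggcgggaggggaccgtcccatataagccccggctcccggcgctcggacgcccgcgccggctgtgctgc
THBS1: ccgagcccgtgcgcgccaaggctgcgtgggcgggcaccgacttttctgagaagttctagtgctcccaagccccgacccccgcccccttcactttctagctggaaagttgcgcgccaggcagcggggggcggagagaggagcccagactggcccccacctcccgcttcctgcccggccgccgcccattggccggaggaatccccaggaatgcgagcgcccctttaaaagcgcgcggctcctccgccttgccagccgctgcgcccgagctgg
Neither 300-base window held the forkhead letters TGTTTAC or TGTTTGC, the hypoxia core ACGTG, the E-box CAGGTG or the AP-1 letters TGANTCA on either strand, which says only that these letters are not in these windows. Over all 35116 windows, 7.2% held a forkhead match, 21.4% ACGTG, 20.6% CAGGTG and 7.7% TGANTCA. Both windows were rich in G and C, at 76.7% for FN1 and 70.0% for THBS1, against a median of 58.7% over all windows and 48.0% for VIM.

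**Figure D2:**
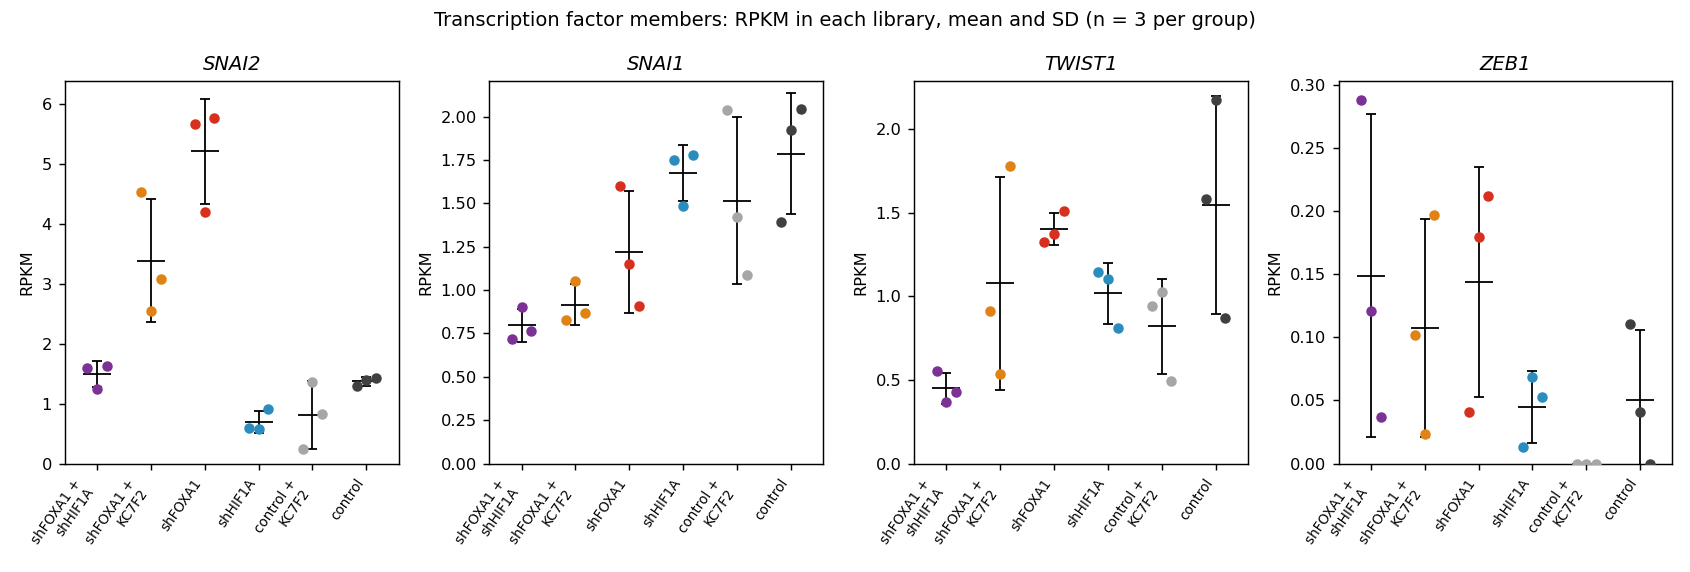
RPKM of SNAI2, SNAI1, TWIST1 and ZEB1 in each of 18 libraries (points), with the mean and SD of each group of 3 (bars) on linear axes from 0. SNAI2 was highest in shFOXA1 cells, SNAI1 and TWIST1 were lowest on average in doubly infected cells, and ZEB1 never passed 0.288 RPKM.

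SNAI2 encodes SLUG, a zinc-finger repressor of E-cadherin (chromosome 8, 48917604 to 48921740). It stood at 5.67, 4.20 and 5.78 RPKM in shFOXA1 cells, from 54 to 92 reads. In control it stood at 1.29, 1.39 and 1.43 RPKM, from 31 to 34 reads. The groups did not overlap, and SNAI2 rose by 1.60 ± 0.27 (limma adjusted p = 0.000312), a ratio of pooled reads of 3.82 with an interval of 2.98 to 4.91. Under KC7F2 it rose by 1.64 ± 0.27 (adjusted p = 0.000234), with 4.54, 2.55 and 3.09 RPKM in shFOXA1 cells, against 0.236, 1.37 and 0.832 RPKM in control cells. With HIF1A also knocked down, SNAI2 fell to 1.60, 1.24 and 1.63 RPKM in doubly infected cells, a fall of 1.51 ± 0.27 against shFOXA1 cells (adjusted p = 0.000311). The doubly infected libraries overlapped control, and FOXA1 mRNA was less reduced in them than in shFOXA1 cells (64.5 against 34.1 RPKM), whose part in this fall was not tested. In shHIF1A cells SNAI2 stood at 0.591, 0.581 and 0.907 RPKM, below all 3 control libraries. Neither that difference, -0.66 ± 0.27 against control (adjusted p = 0.0569), nor the one in doubly infected against shHIF1A cells, 0.75 ± 0.27 (adjusted p = 0.0737), passed. Both passed in fits of the compared libraries alone (adjusted p = 0.0208 and 0.0417). The interaction with shHIF1A was -0.85 ± 0.38 (adjusted p = 0.202) and that with KC7F2 was 0.04 ± 0.38 (adjusted p = 0.992), so a different effect of shFOXA1 in those backgrounds was not shown for SNAI2.

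SNAI1 encodes SNAIL, the closest relative of SLUG among the members (chromosome 20, 49982999 to 49988886). It did not pass in shFOXA1 cells, which held 1.60, 1.15 and 0.907 RPKM, against 1.39, 1.92 and 2.05 RPKM in control (-0.42 ± 0.19, limma adjusted p = 0.129). It stood at 0.720, 0.905 and 0.765 RPKM in doubly infected cells, from 4 to 11 reads, against 1.75, 1.49 and 1.78 RPKM in shHIF1A cells. Here the groups did not overlap and SNAI1 fell by 0.75 ± 0.19 (adjusted p = 0.0155), a call lost without shHIF1A 1 (adjusted p = 0.0567). With KC7F2, shFOXA1 cells held 0.828 to 1.05 RPKM, against 1.09 to 2.04 RPKM in control cells (-0.49 ± 0.19, adjusted p = 0.0637). This difference passed without KC7F2-treated control 3 (adjusted p = 0.0308). The lowest group mean of SNAI1 was 0.796 RPKM in doubly infected cells and the highest 1.79 RPKM in control, and in the order of means each group overlapped the next.

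TWIST1 encodes a basic helix-loop-helix factor of mesoderm (chromosome 7, 19020991 to 19117672). It stood at 0.553, 0.370 and 0.427 RPKM in doubly infected cells, from 3 to 6 reads, against 1.33, 1.38 and 1.51 RPKM in shFOXA1 cells, from 13 to 17 reads. The groups did not overlap, and TWIST1 fell by 1.01 ± 0.28 (limma adjusted p = 0.00940), a ratio of pooled reads of 0.309 with an interval of 0.153 to 0.583. Control libraries spread from 0.873 to 2.18 RPKM and took in all 3 shFOXA1 libraries. Against control TWIST1 changed by -0.05 ± 0.28 in shFOXA1 cells and by -0.38 ± 0.28 in shHIF1A cells (adjusted p = 0.918 and 0.293). With KC7F2 the change was -0.60 ± 0.28 in control cells (adjusted p = 0.404).

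ZEB1 encodes a zinc-finger repressor that is kept low in epithelial cells by miR-200 microRNAs (chromosome 10, 31318495 to 31529814). It had 67 reads in 14 of 18 libraries and at most 0.288 RPKM. Reads in replicates 1 to 3 were 6, 5 and 2 in doubly infected cells, 6, 1 and 11 in shFOXA1 cells with KC7F2, 2, 7 and 7 in shFOXA1 cells, 1, 5 and 3 in shHIF1A cells, 0 in all of the KC7F2-treated control cells and 8, 3 and 0 in control. Libraries of shFOXA1 cells and control overlapped, at a ratio of pooled reads of 2.55 with a counting interval of 1.11 to 6.08. Doubly infected and shHIF1A libraries overlapped too, at a ratio of 2.57 with an interval of 1.02 to 6.82. Under KC7F2, shFOXA1 cells held 18 reads, against 0 in control cells, without overlap. All 3 comparisons were thus higher with shFOXA1, but the intervals cover counting error only, and the reads are too few to test the spread between libraries. ZEB1-AS1, on the opposite strand, was listed at 1.54 to 3.997 RPKM, above ZEB1 in every library, so the few ZEB1 reads cannot be assigned to it with certainty. ZEB2 (chromosome 2, 144364364 to 144524583) had 1 read over all 18 libraries, in shHIF1A 2, and CDH2, the gene of N-cadherin (chromosome 18, 27950966 to 28177446), had 1 read, in shHIF1A 1. In the doubly infected cells, the shallowest group, the floor of 3 reads stood at 0.0371 RPKM for CDH2 and 0.0142 RPKM for ZEB2. The 95% counting interval of their count of 0 reached 0.0456 and 0.0174 RPKM. At this depth no group showed a readable level of N-cadherin or ZEB2 mRNA, the doubly infected cells with the highest VIM included.

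**Figure D3:**
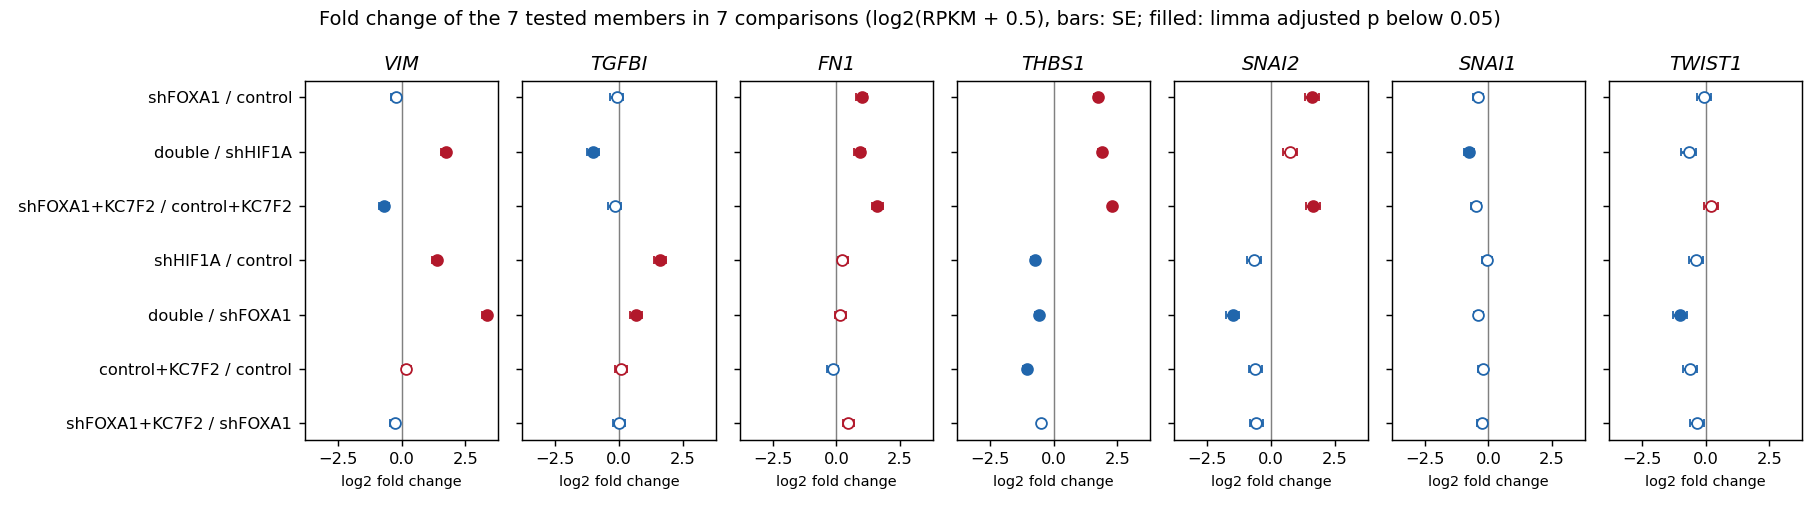
Log2 fold change on log2(RPKM + 0.5) of the 7 tested members (panels) in 7 comparisons (rows), with SE as bars, red above and blue below 0, and filled where the limma adjusted p was below 0.05. FN1 and THBS1 are filled and above 0 in all 3 comparisons of shFOXA1, and VIM reaches 3.33 in doubly infected over shFOXA1 cells. TGFBI passed the filter only through shHIF1A cells, so its filled points in comparisons with that group are not read as support.

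Set against all tested genes, the members did not move as a block. In shFOXA1 cells against control 3 of 7 rose and 0 fell, where 9.52% of all 12900 genes rose and 14.6% fell, and the median change was -0.05 over members and -0.09 over all genes. In shHIF1A cells 2 rose and 1 fell (25.9% and 16.1% of all genes, medians -0.06 and 0.07). But 1 of the rises is TGFBI, which entered the tested genes only through shHIF1A cells. Its difference is given above from the fit with no filter, so VIM is the only rise read from this count. With KC7F2 in control cells 0 rose and 1 fell (1.05% and 0.992%, medians -0.20 and 0.07). In doubly infected against shFOXA1 cells 2 rose and 3 fell (24.0% and 13.5%, medians -0.39 and 0.10). With KC7F2 in shFOXA1 cells 0 of 7 passed in limma (1.71% and 2.37%, medians -0.28 and -0.01), where 2097 of all genes had an unadjusted p below 0.05 and voom on recovered reads called 1 member, THBS1. In doubly infected against shHIF1A cells 3 rose and 2 fell (5.27% and 9.25%, medians 0.75 and -0.06), and 1 of these falls is again TGFBI. With KC7F2, shFOXA1 against control cells had 3 rises and 1 fall (8.88% and 24.1%, medians 0.20 and -0.15). The interaction with shHIF1A was positive in 1 member, VIM, and negative in 0 (3.16% and 4.45%), and that with KC7F2 passed in 0 of 7 in limma (0.0155% and 0.0620% of all genes, 872 genes with an unadjusted p below 0.05, and 0 members under voom). The split of all called genes between rises and falls depended on scaling. Under median-ratio scaling the share of rises was 49.2% for shFOXA1 against control (39.5% unscaled), 51.0% for shHIF1A against control (61.7%), 34.1% for KC7F2 against control (51.3%), 48.3% for doubly infected against shFOXA1 cells (64.0%) and 49.3% for shFOXA1 under KC7F2 (26.9%). The interaction with KC7F2 then had 4 positive and 4 negative genes, against 2 and 8 unscaled, and under quantile normalisation the share of rises was 46.7% for doubly infected against shHIF1A cells (36.3%). The median of all genes moved by more than 0.1 in 2 of these, to -0.01 for doubly infected against shFOXA1 cells and to -0.00469 for shFOXA1 under KC7F2, and no member's call in them changed with it.

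For each tested member, the 3 genes whose log2(RPKM + 0.5) followed it most closely over the 18 libraries were listed by Pearson's r, as a description of libraries that share 6 treatments. VIM was followed by LRRC42 (0.969), DHRS2 (0.960) and GABPB1 (0.956), and TGFBI by EFNB3 (0.968), SLC16A9 (0.965) and TYRP1 (0.960). THBS1 was followed by BBX (0.980), ZNF697 (0.969) and TBC1D8 (0.961), and FN1 by COLCA1 (0.959), NBEA (0.937) and SYNE2 (0.936). SNAI2 was followed by KCNMA1 (0.959), TMEM184C (0.949) and NFIB (0.947). SNAI1 and TWIST1, read from few reads, had lower values, with SMARCAL1 (0.886), SOX12 (0.877) and NETO2 (0.845) for SNAI1 and NDRG1 (0.823), TUSC8 (0.795) and HOMER2 (0.793) for TWIST1.

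Other genes of the mesenchymal programme were read from lists. Of a list of 40 matrix and mesenchymal genes outside the members, 20 were tested. In shHIF1A cells against control 14 rose and 1 fell, with a median of 0.93 (0.07 over all genes, of which 25.9% rose and 16.1% fell). The list holds the fibroblast markers COL1A1 and COL3A1, and the fibroblast sum was also highest in shHIF1A cells. These collagens made up most of that sum, with means of 6.84 and 1.81 RPKM in shHIF1A cells, so the sum is not a separate reading. The part of fibroblast markers in this count was not tested. The integrin ITGA5, a fibronectin receptor subunit, rose by 2.02 ± 0.14, to 22.6 ± 4.54 RPKM in shHIF1A cells, against 5.17 ± 0.958 in control (limma adjusted p = 2.91e-08). The myosin light chain MYL9 rose by 1.98 ± 0.15, to 19.6 ± 3.64 RPKM, against 4.54 ± 0.502 in control (adjusted p = 7.46e-08), and the collagen COL6A1 rose by 1.40 ± 0.11 (adjusted p = 8.00e-08). In doubly infected against shFOXA1 cells 12 rose and 2 fell, with a median of 0.67 (0.10 over all genes, of which 24.0% rose and 13.5% fell). In doubly infected against shHIF1A cells 3 rose and 4 fell, with a median of -0.24 (-0.06, 5.27% and 9.25% over all genes). Under KC7F2, shFOXA1 against control cells had 3 rises and 4 falls, with a median of 0.15 (-0.15, 8.88% and 24.1% over all genes). In shFOXA1 cells against control 6 rose and 2 fell, with a median of 0.18 (-0.09 over all genes, of which 9.52% rose and 14.6% fell). The actin-binding caldesmon CALD1 fell by 1.49 ± 0.10 there, to 43.4 ± 3.28 RPKM in shFOXA1 cells, against 123 ± 12.6 in control (adjusted p = 1.28e-08), and smooth-muscle actin ACTA2 rose by 1.37 ± 0.17, to 12.5 ± 0.672 RPKM, against 4.53 ± 0.646 in control (adjusted p = 1.63e-05). For ACTA2 the interaction with shHIF1A was negative, unlike that of VIM, at -1.60 ± 0.24 (adjusted p = 0.000451) and the level was 3.24 ± 0.817 RPKM in doubly infected cells, against 12.5 RPKM in shFOXA1 cells.

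Of 18 matrix receptors 12 were tested, and ITGA5, ITGAV, ITGB1 and ITGB3 stand in both lists. Of the 12 tested, 10 rose in shHIF1A cells against control and 6 in shFOXA1 cells, 0 fell in either, and the medians were 0.80 and 0.35. Of all genes 25.9% rose in shHIF1A cells and 9.52% in shFOXA1 cells, 16.1% and 14.6% fell, and the medians were 0.07 and -0.09. SDC4, a heparan sulphate syndecan that binds fibronectin, rose in both, by 1.46 ± 0.10 in shHIF1A cells and by 0.82 ± 0.10 in shFOXA1 cells (limma adjusted p = 3.12e-08 and 2.28e-05). The laminin receptor subunit ITGA6 rose by 1.54 ± 0.10 in shFOXA1 cells (adjusted p = 1.61e-08) and fell by 1.21 ± 0.10 in doubly infected against shFOXA1 cells (adjusted p = 1.92e-07).

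Of 24 other transcription factors linked to the transition 13 were tested. In shFOXA1 cells against control 5 rose and 1 fell, and in shHIF1A cells 5 rose and 0 fell, with medians of 0.31 and 0.33. Of all genes 9.52% rose and 14.6% fell in shFOXA1 cells, and 25.9% and 16.1% in shHIF1A cells, with medians of -0.09 and 0.07, so the rises in shHIF1A cells are not read as a result about the list. In doubly infected against shHIF1A cells 2 rose and 3 fell (5.27% and 9.25% of all genes). Under KC7F2, shFOXA1 against control cells had 6 rises and 2 falls (8.88% and 24.1% of all genes). SOX9, a factor of progenitor cells, rose by 2.89 ± 0.14, to 37.7 ± 0.440 RPKM in shFOXA1 cells, against 4.68 ± 0.790 in control (limma adjusted p = 3.17e-10), and the AP-1 subunit FOSL2 rose by 2.59 ± 0.14 (adjusted p = 1.15e-09). Both stood at much higher levels than any SNAI, ZEB or TWIST gene in the same cells. SOX9 fell by 0.91 ± 0.14 in doubly infected against shFOXA1 cells (adjusted p = 8.41e-05), as SNAI2 did. Of 20 signalling genes of the transition 13 were tested, and 8 rose in shFOXA1 cells and 7 in shHIF1A cells against control, with 0 falls in either and medians of 0.47 and 0.29 (-0.09 and 0.07 over all genes, of which 9.52% and 25.9% rose and 14.6% and 16.1% fell). The TGF-beta receptor TGFBR2 stood at 2.41 ± 0.306 RPKM in shFOXA1 cells, against 0.110 ± 0.0355 in control, and the ligand TGFB3 at 3.97 ± 0.828 RPKM, against 0.156 ± 0.109 (adjusted p = 1.28e-07 and 1.63e-07). The ligands TGFB3 and WNT11 fell in doubly infected against shFOXA1 cells, at 0.196 ± 0.0959 RPKM for TGFB3, against 3.97 RPKM in shFOXA1 cells, and at 0.242 ± 0.0806 RPKM for WNT11, against 11.4 ± 1.74 RPKM (adjusted p = 1.88e-07 and 2.06e-10). The Notch ligand JAG1 was instead highest with HIF1A knockdown, at 32.6 ± 1.76 RPKM in shHIF1A cells, against 7.02 ± 0.728 in control (adjusted p = 9.13e-10). In the interaction with shHIF1A 6 of the 13 signalling genes were negative and 0 positive, where 4.45% of all genes were negative and 3.16% positive. FOXA1 mRNA was less reduced in doubly infected than in shFOXA1 cells, and its part in these differences was not tested.

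**Figure D4:**
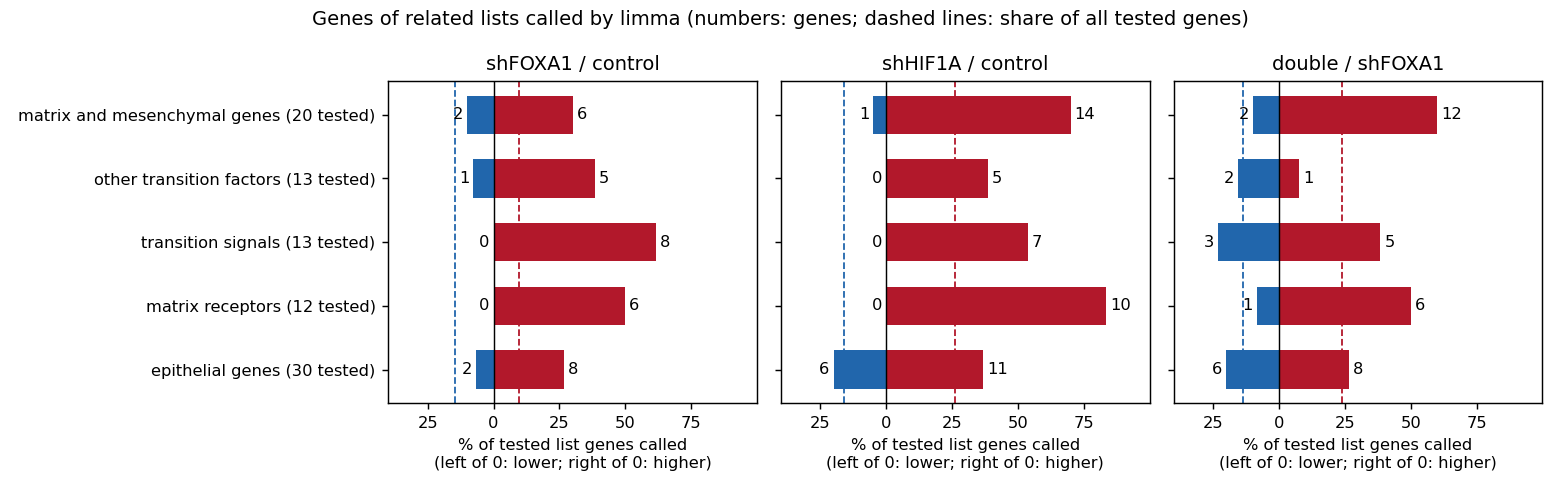
Share of the tested genes of 5 related lists that limma called higher (right of 0, red) or lower (left of 0, blue) in 3 comparisons, with the number of genes at each bar. Dashed lines give the share of all 12900 tested genes, 9.52% and 14.6% for shFOXA1 over control, and the bars of matrix genes and receptors reach 14 of 20 and 10 of 12 in shHIF1A over control.

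Epithelial genes were read last. All 30 listed epithelial genes were tested, of which KRT8 and KRT18 are also LNCaP markers. In shFOXA1 cells against control 8 rose and 2 fell, in shHIF1A cells 11 rose and 6 fell, and in doubly infected against shFOXA1 cells 8 rose and 6 fell, with medians of 0.09, 0.25 and 0.18. Of all genes 9.52% rose and 14.6% fell in shFOXA1 cells (median -0.09), 25.9% and 16.1% in shHIF1A cells (median 0.07), and 24.0% and 13.5% in doubly infected against shFOXA1 cells (median 0.10). In doubly infected against shHIF1A cells 3 epithelial genes rose and 2 fell (5.27% and 9.25% of all genes, medians 0.08 and -0.06). Under KC7F2, shFOXA1 against control cells had 5 rises and 9 falls (8.88% and 24.1% of all genes, medians -0.06 and -0.15). GRHL2, a factor that maintains epithelial junctions, rose by 0.90 ± 0.12 in shFOXA1 cells against control, to 94.97 ± 6.03 RPKM, against 51.3 ± 8.96 (limma adjusted p = 3.09e-05). The splicing regulator ESRP2 fell by 0.79 ± 0.12, to 17.6 ± 0.646 RPKM, against 30.9 ± 4.56 in control (adjusted p = 0.000156). In shHIF1A cells the protease inhibitor SPINT1 and the factor ELF3 rose by 1.10 ± 0.10 and 1.08 ± 0.11 (adjusted p = 2.58e-07 and 8.41e-07), while the junction protein MARVELD2 fell by 1.58 ± 0.16, to 3.28 ± 0.597 RPKM, against 10.8 ± 2.34 in control (adjusted p = 1.58e-06).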

How the data were processed

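RNA was measured in 18 LNCaP libraries of total RNA made with the NEBNext Ultra kit, 3 in each of 6 groups. The deposited values were RPKM, computed by the authors. The submitters' processing notes name STAR and hg38. How reads were counted, on which annotation and whether by strand is not given in the sources used here. Of 26475 lines, 32 held no value.

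RPKM was tested as log2(RPKM + 0.5) for genes reaching 1 RPKM in 3 libraries or more, without further scaling, with limma 3.58.1 in R 4.3.3 (1 model over 6 groups, eBayes with trend, two-sided, Benjamini-Hochberg within each of the 9 contrasts, called below 0.05). Depth was recovered from 2367 genes of up to 200 nt, and 99.95% of tested genes then had whole reads in all libraries, within 0.02 reads. Counting intervals are at 95% and the floor of a count of 0 is 3 reads; both cover counting error only. Positions are from GENCODE and promoters from RefSeq. Promoter windows were read for 7 of the 10 members, and none for SNAI1, SNAI2 and TWIST1. The reading of promoters left out chromosome 8, where SNAI2 lies.

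The members and lists were chosen with earlier results of these data known. All tested members were fitted in each contrast, and not every value is printed. From each list up to 4 genes with the smallest adjusted p were read, of which some are printed. The 3 genes most like each tested member are named too. VIM's promoter was added after its values were seen. Replicate numbers were checked and did not pair the libraries. The fit was tested on simulated data. The fit was repeated with pseudocounts of 0.1 and 1, with filters of 0 and 5 RPKM, after quantile normalisation or median-ratio scaling, with robust eBayes, on only the groups compared, with a replicate block, without a length trend, and without 3 libraries or each library. Leaving out the 3 libraries kept only 1 library of KC7F2-treated control cells. Limma-voom on recovered reads was chosen after seeing the data. Python 3.11.15 drew the figures.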

Additional observations from a re-analysis of the deposited data

Results flagged for a closer look

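The effect of shFOXA1 on VIM differed between backgrounds by a test of the difference itself. FOXA1 mRNA averaged 64.5 RPKM in doubly infected and 119.9 RPKM in shHIF1A cells, and 34.1 RPKM in shFOXA1 and 97.5 RPKM in control cells. The part of these FOXA1 levels in the VIM difference was not tested. The interaction with shHIF1A was 1.96 ± 0.26 on the log2(RPKM + 0.5) scale (limma adjusted p = 0.000150), with all 3 doubly infected libraries, at 21.8 to 26.3 RPKM, above all 3 shHIF1A libraries, at 5.53 to 7.54 RPKM, and with shFOXA1 libraries at 1.76 to 2.01 RPKM, against 1.68 to 3.09 RPKM in control.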

How the results depend on the processing

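Of 63 member results (7 members in 9 contrasts), 52 kept their call under all alternatives run. Over all 1182 alternative values 1155 kept it, 14 lost it, 13 gained it and 0 called values changed sign, while 29 values that never passed did. Lost and gained calls not given above were SNAI2 in shHIF1A cells against control (gained under median-ratio scaling, quantile normalisation and with 3 libraries left out, adjusted p 0.0435, 0.0309 and 0.0232), SNAI2 in doubly infected against shHIF1A cells (gained with 3 libraries left out, 0.0187), TWIST1 in that contrast (gained with only the groups compared, 0.0460), SNAI1 in that contrast (lost with voom, 0.0696), TGFBI in doubly infected against shFOXA1 cells (lost with robust eBayes, only the groups compared, the replicate block or 3 libraries left out, 0.0538 to 0.0707) and the TGFBI interaction with shHIF1A (gained with no filter, 0.0182, which made 2 members called, against 1). At least 5 RPKM left 2 members called in doubly infected against shFOXA1 cells and 3 against shHIF1A cells, since fewer members were tested. THBS1 with KC7F2 in shFOXA1 cells was called, as 1 member against 0, under the replicate block (adjusted p = 0.0454), with 3 libraries left out, with the length trend removed and with voom (0.0198, 0.0288 and 0.0321). The cause was not tested.

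The replicate numbers did not pair the libraries (same-number correlations -0.214 to 0.252), and the replicate block changed no member call other than these of TGFBI and THBS1. Counts over all genes moved more. With only the groups compared, 1696 genes passed for shFOXA1 against control (3111 in the fit of all groups), 21 genes and 0 members for KC7F2 against control (263 and 1), and 2 for the KC7F2 interaction (10). With 3 libraries left out, 67 passed for KC7F2 against control, 1791 for shFOXA1 under KC7F2 (4250) and 2 for the KC7F2 interaction, which gave 3 with a pseudocount of 0.1, 27 with 1, 39 with no filter, 25 with quantile normalisation and 28 with the length trend removed. With each library left out, the counts were 150 to 497 for KC7F2 against control, 306 to 357 for KC7F2 in shFOXA1 cells (526), 1201 to 1675 for shFOXA1 in shHIF1A cells (1873), 2811 to 4321 for shFOXA1 under KC7F2 and 2 to 23 for the KC7F2 interaction. Depth limits TGFBI, SNAI1, TWIST1 and ZEB1, with 0 to 43 reads in a library.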
